A study of Mus musculus with 5 samples.

Results

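The deposited Foxf1 list placed 1621 peaks in the intergenic DNA around protein-coding genes. These are the Foxf1 peaks whose summit lay in no protein-coding gene and more than 1 kb but at most 50 kb from the nearest end of one. They were selected by position in the authors' list of called peaks, on chromosomes 1 to 19 and X, and peaks that shared any base with a Hand1 peak were left out. The peaks that met this rule made up 28.8% of the 5638 Foxf1 peaks on those chromosomes. The rule used the peak calls, the summit positions and the Hand1 overlap, so the presence of a peak and its distance from a gene are descriptions and carry no test. The other Foxf1 peaks comprised 1418 within 1 kb of a gene end, 2042 inside genes, 385 more than 50 kb from any gene and 172 overlapping Hand1. The names of the 5703 peaks in the whole Foxf1 list carry numbers up to 156892, so most numbers are absent from it. Its lowest −log10 q, the caller's measure of significance, was 10.0. A gene or peak without a neighbour here may thus lie near a weaker call that the list does not hold. Chromatin immunoprecipitation with sequencing (ChIP-seq) measures where a protein sits on DNA by sequencing the fragments that an antibody against it brings down.

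The cells were E14, an established line of mouse embryonic stem cells. They grew for 48 h as embryoid bodies in medium without serum, then for 40 h as new aggregates with VEGF (5 ng/ml), Activin A (10 ng/ml) and BMP4 (0.3 ng/ml), a stage labelled MES. The CP stage followed after 32 h as a monolayer with VEGF (5 ng/ml), basic FGF (10 ng/ml) and FGF10 (25 ng/ml). Foxf1 was measured at CP from a construct that overexpresses the protein with an HA tag on induction, so the peaks are those of added Foxf1, and the inducing agent and the number of clones are not given in the sources used here. Hand1 was measured at MES with an HA tag knocked in at its own gene, and stage, factor and means of expression differ together between the lists. The 5 samples are 1 Hand1-HA library, 2 Foxf1-HA libraries and 1 input library (chromatin before precipitation) for each stage. The Foxf1 list belongs to replicate 1, and whether replicate 2 was pooled into it is not stated. No value here has a replicate error, and no test was run, since peaks of 1 list are not replicates. Peak lists hold no expression values, so the identity of the cells was not checked against marker genes.

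Foxf1 is a transcription factor of the forkhead family, whose DNA-binding domain recognises a core of TGTTTAC and close variants. It is known for its part in the lateral and splanchnic mesoderm, in the mesenchyme of lung and gut, and in blood vessels, and its gene is a known target of Hedgehog signalling. Enhancers, the DNA elements that raise transcription from a distance, often lie in intergenic DNA, and a gene near a bound element is not necessarily the gene it acts on. The nearest gene is therefore given below as a position and not as a target.

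Intergenic here means outside protein-coding genes. Long non-coding RNA (lncRNA) genes, which make transcripts with no protein product, held 300 of the 1621 summits (18.5%). The shares were 8.67% of the peaks at gene ends, 5.93% of those inside genes and 22.9% of those more than 50 kb away. A further measure is the distance to the ends of lncRNA genes, and 183 of the intergenic peaks (11.3%) lay within 1 kb of one. That share was close to those at gene ends (10.5%) and beyond 50 kb (10.6%), and it was 4.16% inside genes. The peak centres of 32 of them fell inside the promoter window of an lncRNA, defined as 250 bases before to 50 after the annotated start. Those 34 windows belong to 33 lncRNA genes. Their median GC content was 57.7%, against 48.3% over all 11575 lncRNA windows and 52.7% over all 32851 windows of the table. The median number of CpG dinucleotides was 14.5, against 4 and 7. The letters TGTTTAC, read on both strands, were present in 2 of the 34 windows (5.88%), against 4.84% of lncRNA windows and 3.65% of all windows. The looser TGTTNAC, which includes the former, was also present in 2, against 13.3% and 10.4%, and TGTTTGC in 0, against 5.93% and 5.07%. A match is a description of letters and not a bound site.

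The sequences of both windows with the forkhead letters are printed from the RefSeq promoter table (GRCm38.p6), 5′ to 3′ along the lncRNA. The match is in capitals on whichever strand it reads. The window of 2900052L18Rik is chr11:120231568-120231867 on the minus strand. Its peak had a fold enrichment of 13.3, the match starts 46 bases before the lncRNA start, and the summit lay 31 bases before it. The window of AA388235 is chr17:33981242-33981541 on the plus strand, with a fold of 6.14, a match 162 bases before the start and a summit 178 bases before it. The summit thus lay 15 bases from the first base of the match in the first window and 16 bases from it in the second. Both windows were picked for holding a summit and the letters within 300 bases, which limits these distances beforehand. No expected distance is given.
2900052L18Rik: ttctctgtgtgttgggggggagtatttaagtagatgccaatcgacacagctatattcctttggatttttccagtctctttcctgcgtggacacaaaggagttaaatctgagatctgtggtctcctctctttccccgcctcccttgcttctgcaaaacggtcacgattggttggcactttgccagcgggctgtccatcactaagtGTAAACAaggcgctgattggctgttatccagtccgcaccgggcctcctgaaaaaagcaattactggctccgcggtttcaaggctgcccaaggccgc
AA388235: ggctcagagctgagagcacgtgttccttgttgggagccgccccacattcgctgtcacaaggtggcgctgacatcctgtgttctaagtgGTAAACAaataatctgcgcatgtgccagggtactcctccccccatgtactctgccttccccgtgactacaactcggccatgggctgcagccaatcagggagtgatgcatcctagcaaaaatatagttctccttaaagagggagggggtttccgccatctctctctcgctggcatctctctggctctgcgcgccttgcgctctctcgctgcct

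A pair of windows without the letters is shown for its position near genes of the lists described below. Gm33460 starts beside Eomes, a T-box factor of early mesoderm, in chr9:118489730-118490029 on the minus strand. Its peak had a fold of 7.86, with the summit 109 bases before the lncRNA start and 3.76 kb downstream of Eomes. Gm15418 starts beside Col4a1, a basement membrane collagen, in chr8:11187479-11187778 on the plus strand. Its peak had a fold of 6.69, with the summit 37 bases before the lncRNA start and 10.7 kb downstream of Col4a1.
Gm33460: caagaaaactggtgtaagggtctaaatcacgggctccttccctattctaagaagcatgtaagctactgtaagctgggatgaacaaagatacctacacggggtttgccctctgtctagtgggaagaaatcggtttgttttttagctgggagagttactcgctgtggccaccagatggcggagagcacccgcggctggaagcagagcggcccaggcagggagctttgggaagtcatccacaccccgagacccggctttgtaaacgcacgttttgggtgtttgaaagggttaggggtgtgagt
Gm15418: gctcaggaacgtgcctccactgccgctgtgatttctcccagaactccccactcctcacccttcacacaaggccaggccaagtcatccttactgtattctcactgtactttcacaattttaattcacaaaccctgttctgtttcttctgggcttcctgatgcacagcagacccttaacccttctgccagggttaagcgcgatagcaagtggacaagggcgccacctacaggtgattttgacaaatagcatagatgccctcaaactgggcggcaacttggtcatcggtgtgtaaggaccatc

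The authors' fold enrichment of the summit over the local background had a median of 7.73 in the intergenic peaks, with quartiles of 6.80 and 9.14 and a range from 2.69 to 26.5. The medians of the other positions were nearly the same, at 7.60 at gene ends, 7.61 inside genes and 7.73 beyond 50 kb. The intergenic peaks had a median −log10 q of 14.9, the caller's measure of significance, and a median width of 483 bp. Both were close to those inside genes (14.8 and 491 bp) and below those at gene ends (17.8 and 630.5 bp). A fold of at least 12 was reached by 135 intergenic peaks (8.33%), compared with 10.1% at gene ends, 6.42% inside genes and 4.68% beyond 50 kb. These differences between positions were not tested.

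Library depth is unknown, so the number of fragments at each summit and the control level there (the fragments expected from the background) were solved from the authors' fold and p-value. The intergenic summits had a median of 28 fragments over a control of 2.68, so a typical fold rests on few fragments. Controls of 7.83 fragments or more, 5 times the lowest level of the list, were called high, and 32 intergenic peaks had such a control (1.97%; exact binomial 95% interval 1.35 to 2.78, counting error only). Of these, 12 lay on chromosome 8, 9 on chromosome X and 5 on chromosome 6. The shares elsewhere were 1.76% at gene ends, 0.539% inside genes, 5.97% beyond 50 kb and 36.0% where Hand1 overlapped.

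**Figure D1:**
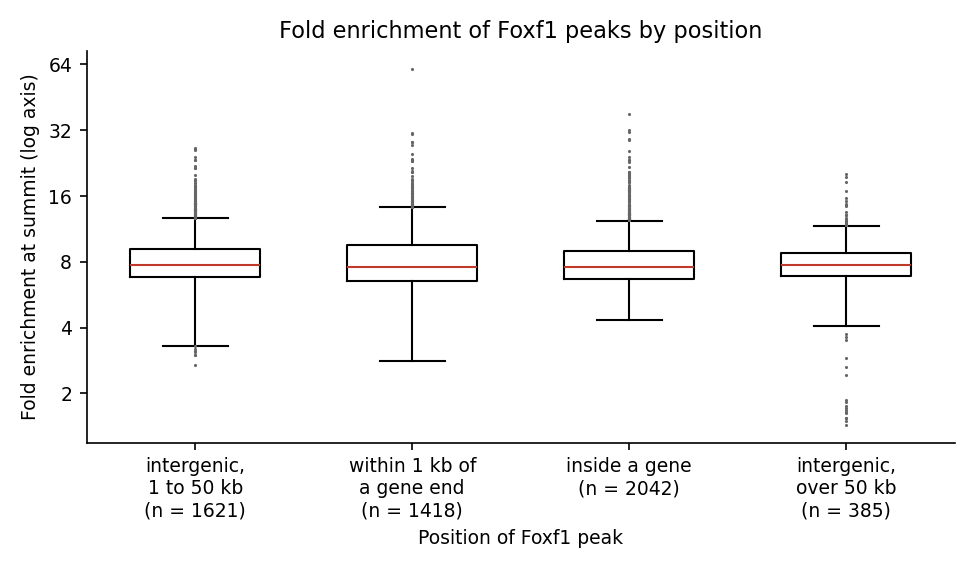
Fold enrichment at the summit (log axis) of Foxf1 peaks outside Hand1 peaks, by position relative to protein-coding genes, with the number of peaks under each name. Boxes span the quartiles with the median in red, whiskers reach the last peak within 1.5 box heights, and dots are the peaks beyond; the medians of all positions lie between 7.60 and 7.73, and the highest intergenic peak reaches 26.5.

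The peaks thinned out with distance from genes. Their median distance from the nearest gene end was 9.38 kb, with quartiles of 3.97 and 19.9 kb. There is more DNA at some distances than at others, so counts were divided by the DNA outside coding genes that lies at each distance, which came to 596 Mb between 1 and 50 kb. The average was 2.72 peaks per Mb. At 1 to 2 kb from a gene the density was 5.16 per Mb (163 peaks; exact Poisson 95% interval 4.40 to 6.02, counting error only). At 2 to 5 kb it was 3.99 (322 peaks), at 5 to 10 kb 3.46 (358 peaks) and at 10 to 20 kb 2.60 (373 peaks). At 20 to 50 kb it was 1.71 (405 peaks; 1.55 to 1.88). The fold enrichment did not follow the density, with medians between 7.55 and 7.82 in these bands. The share of high controls was 5.19% at 20 to 50 kb and at most 1.23% in the nearer bands. DNA to which reads cannot be mapped was not removed from the space, and its part in these densities was not tested.

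Strand was known for the nearest gene of 1292 peaks, 79.7% of the total. Of these, 654 (50.6%; interval 47.9 to 53.4) lay upstream of the gene's start and 638 downstream of its end. Per Mb the upstream side held 2.57 peaks (2.38 to 2.78) and the downstream side 2.96 (2.74 to 3.20). At 1 to 2 kb the upstream side was at 5.34 (4.16 to 6.76) and the downstream side at 4.65 (3.52 to 6.03), with intervals that overlap widely. At 2 to 5 kb the order was the other way round, with 3.36 upstream (2.77 to 4.04) and 4.73 downstream (3.99 to 5.57). At 5 to 10 kb the downstream side was again at the higher value, with 3.003 upstream (2.51 to 3.56) and 4.06 downstream (3.45 to 4.76), with intervals that overlap slightly. Beyond 10 kb the intervals overlapped widely, with 2.65 upstream and 2.83 downstream at 10 to 20 kb and 1.72 upstream and 1.66 downstream at 20 to 50 kb. The median fold was 7.70 upstream and 7.71 downstream.

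Density differed less between arrangements of neighbouring genes than between lengths of the gap. Gaps between divergent genes, whose starts face each other, held 3.08 peaks per Mb (2.76 to 3.44). Convergent pairs held 2.72 (2.35 to 3.13) and tandem pairs 2.41 (2.21 to 2.62). Gaps without a known strand for both genes held 564 peaks (34.8%; 2.87 per Mb, 2.64 to 3.12) and are left out of these arrangements. By gap length the density was 5.40 per Mb in gaps of 2 to 20 kb, 3.87 at 20 to 50 kb, 2.79 at 50 to 100 kb, 2.06 at 100 to 200 kb and 1.39 at 200 to 500 kb. In gaps of 500 kb or more it was 1.15 (0.905 to 1.45). Short gaps hold only DNA close to genes, so gap length and distance from genes move together here.

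**Figure D2:**
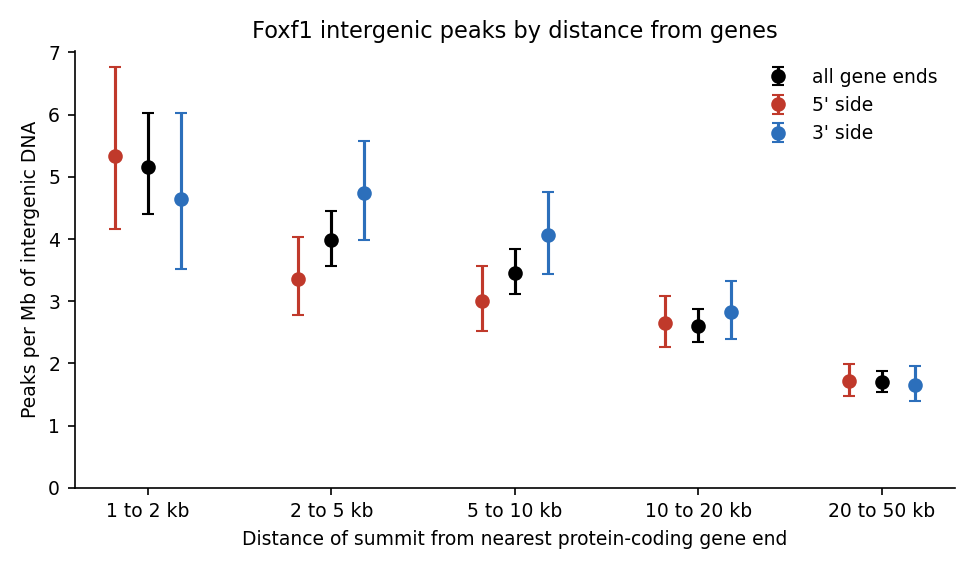
Intergenic Foxf1 peaks per Mb of intergenic DNA, by distance of the summit from the nearest protein-coding gene end, for all peaks and for the upstream (5′) and downstream (3′) sides, with exact Poisson 95% intervals as bars. The density of all peaks runs from 5.16 per Mb at 1 to 2 kb down to 1.71 per Mb at 20 to 50 kb.

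The limits of 1 kb and 50 kb cut through a continuous range of peaks. Just inside the near limit lay a peak 1.004 kb from Scgb1a1 (fold 7.49), and just outside it a peak 0.994 kb from Cnot10 (6.89). Just inside the far limit lay a peak 49.936 kb from Gpc5 (8.71), and just outside it a peak 50.055 kb from Setd4 (13.6).

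The 15 peaks of highest fold were spread over many loci and distances. The first lay 2.29 kb downstream of Kcnk18, a potassium channel gene, at chr19:59239259-59239895, with a fold of 26.5 and 67 fragments over a control of 1.57. The second lay at chr5:120102537-120103236 in the gap of 231 kb between Rbm19 and Tbx5, a T-box factor needed for heart and forelimb development. It had a fold of 26.3 from 83 fragments and lay 13.6 kb upstream of Rbm19, the nearer of the pair. The third lay 27.9 kb downstream of Gpbp1, which encodes a GC-rich promoter binding protein (26.1), and the fourth 5.12 kb downstream of Hhipl2 (25.9). The peak downstream of Epm2aip1 had the most fragments of the 15, with 111 over a control of 3.65 (fold 24.1). All 15 had a control below the limit for high.

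The gaps around the next peaks held genes of varied function. The peak nearest to Frmd8 (23.4) lay 10.5 kb from Neat1, the lncRNA that organises nuclear paraspeckles. The peak 2.35 kb downstream of Chst8, a sulfotransferase gene (23.3), lies in the gap to Kctd15, and the peak 1.74 kb downstream of Gltp, a glycolipid transfer protein gene (21.8), in the gap to the ion channel gene Trpv4. A peak 35.1 kb upstream of Ccn1 had a fold of 21.4, and Ccn1 encodes a secreted matrix protein known as a target of YAP and TEAD. The peak 2.25 kb upstream of Tac4, a tachykinin gene, also reached 21.4, inside the lncRNA gene Gm11515 and in the gap to the homeobox gene Dlx4. The peak 4.75 kb upstream of Noto, a homeobox gene of the notochord, had a fold of 19.9. The others were nearest to Serhl (19.1), to Rfx7, an RFX transcription factor gene (18.9), to Stmn1, which encodes the microtubule regulator stathmin (18.8), and to Foxo6, a forkhead gene (18.3). Of the 15, 6 lay upstream and 7 downstream of the nearest gene, and strand was not known for 2.

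Most intergenic peaks stood alone in the deposited list. With neighbouring summits linked when at most 10 kb apart, 266 peaks (16.4%; interval 14.6 to 18.3) fell into 121 clusters, of which 106 held 2 peaks, 12 held 3, and 1 each held 4, 5 and 9. When any other Foxf1 summit could form the link, 353 peaks (21.8%) had a neighbour. Clustered peaks had a median fold of 7.40 and single peaks one of 7.79.

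The cluster of 9 lies on chromosome X between Mid1, a microtubule-associated ubiquitin ligase gene, and Asmt, over 16.9 kb of summits from chrX:170005221-170005540 to chrX:170021309-170022545. Along the cluster the folds were 2.69, 3.97, 3.54, 3.56, 6.78, 3.18, 12.0, 7.89 and 8.58. The summits at 3.56 and 6.78 belong to 1 called region, so the cluster holds 8 regions. The control was high at all 9, from 11.9 to 71.1 fragments. A cluster of 3 on chromosome 8 nearest to Gm15319 had the same feature, with folds of 3.10, 3.81 and 4.64 over controls of 16.3 to 38.5. These 2 clusters are given with their control levels, and the part of those levels in the calls was not tested.

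In the cluster of 5 on chromosome 15, between Smug1, a uracil DNA glycosylase gene, and Cbx5, which encodes the heterochromatin protein HP1 alpha, the folds were 7.89, 7.34, 6.48, 13.9 and 8.40. The summits spanned 10.7 kb, with controls of 2.68 to 3.16. In the cluster of 4 on chromosome 6, between Fbln2, a gene of the extracellular matrix protein fibulin 2, and Wnt7a, a Wnt ligand gene, the folds were 5.87, 5.72, 7.44 and 14.4. Each of these clusters had 1 peak of nearly 14 or more beside others below 9.

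None of the peaks in the following clusters of 3 reached a fold of 10. Among those of highest fold, the peaks upstream of Ptma, which encodes prothymosin alpha, were at 9.35, 5.28 and 6.45, and those between Spr and Emx1, a homeobox gene of the forebrain, at 9.28, 6.94 and 6.54. The peaks upstream of Cebpb, a bZIP transcription factor gene, were at 7.79, 7.29 and 8.82. Those at Sorl1 were at 8.93, 7.12 and 7.91, of which the first 2 are summits of 1 called region. The peaks between Krt42 and Eif1, a translation initiation factor gene, were at 8.73, 6.23 and 7.14. Those at Tex35 were at 7.94, 6.35 and 8.51, and those between the adhesion receptor genes Adgre5 and Adgrl1 at 5.95, 7.49 and 8.17.

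**Figure D3:**
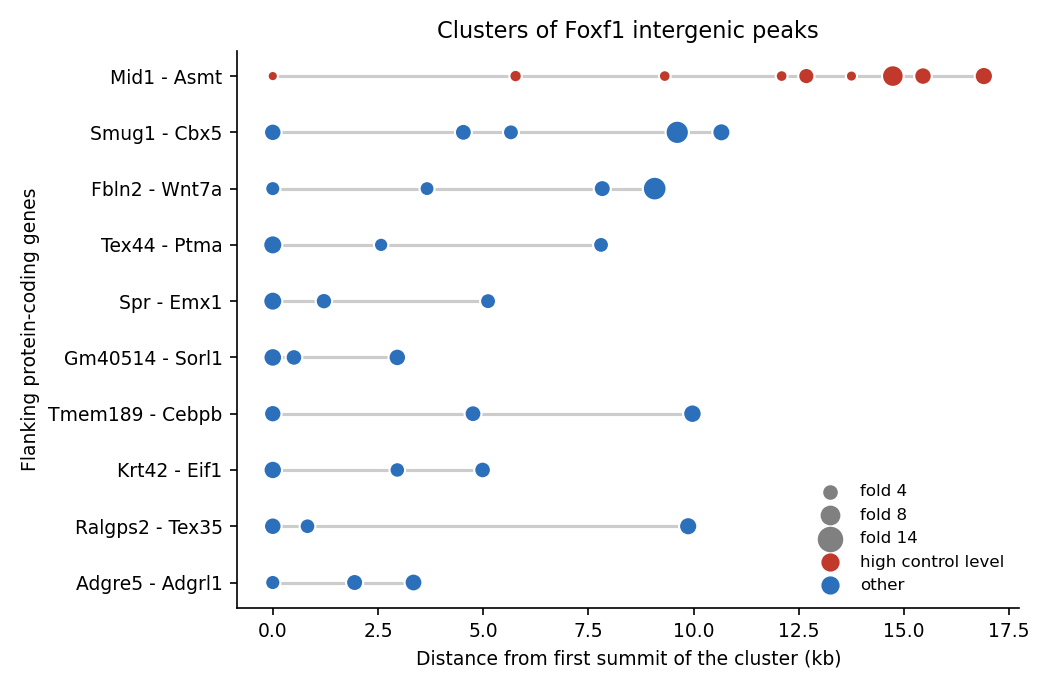
Summits in 10 of the 15 clusters of at least 3 intergenic Foxf1 peaks, taken by number of peaks and then by highest fold. They are placed by distance in kb from the first summit of the cluster, with the flanking protein-coding genes on the vertical axis. The cluster at Gm15319, also with high controls, is not among those shown. Point size gives the fold, and red marks a high control level, as at all 9 summits of the Mid1 to Asmt cluster.

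The 1621 peaks had 1392 different nearest genes, which is 6.44% of the 21631 protein-coding genes. A single peak was found at 1208 of these genes, 2 peaks at 155 and 3 or more at 29. Mid1 with 9 and Gm15319 with 6 came first, all with high controls. Spr followed with 5 peaks (folds up to 9.28), and Fbln2 (up to 14.4), Ptma (14.0), Calcoco1 (13.0), Il17b (12.2) and Il9r (10.9) had 4 each. Il17b encodes a cytokine of the interleukin 17 family, and Il9r the interleukin 9 receptor. Tac4 (up to 21.4) and Nxph3 (14.9) had 3 each. The share of all genes with a Foxf1 peak inside them or within 1 kb of an end was 13.6%, and it was 20% among the 1392 genes, at 278 of them.

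Genes of the chosen pathways and cell types lay near these peaks in a larger share than all genes. Of the 645 genes in 19 lists of pathways and cell types, 106 (16.4%) were the nearest gene of a peak, against 6.44% of all protein-coding genes. With a peak within 50 kb of either end counted, it was 191 (29.6%; interval 26.1 to 33.3) against 16%. Genes differ in how much intergenic DNA surrounds them, and the lists held 40.9 kb of intergenic DNA per gene, against 27.6 kb over all genes. Per Mb of that DNA the lists had 4.74 peaks (3.94 to 5.64) and all genes 2.72. The lists were chosen with earlier results of these data known, so their counts are descriptions, with no test.

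**Figure D4:**
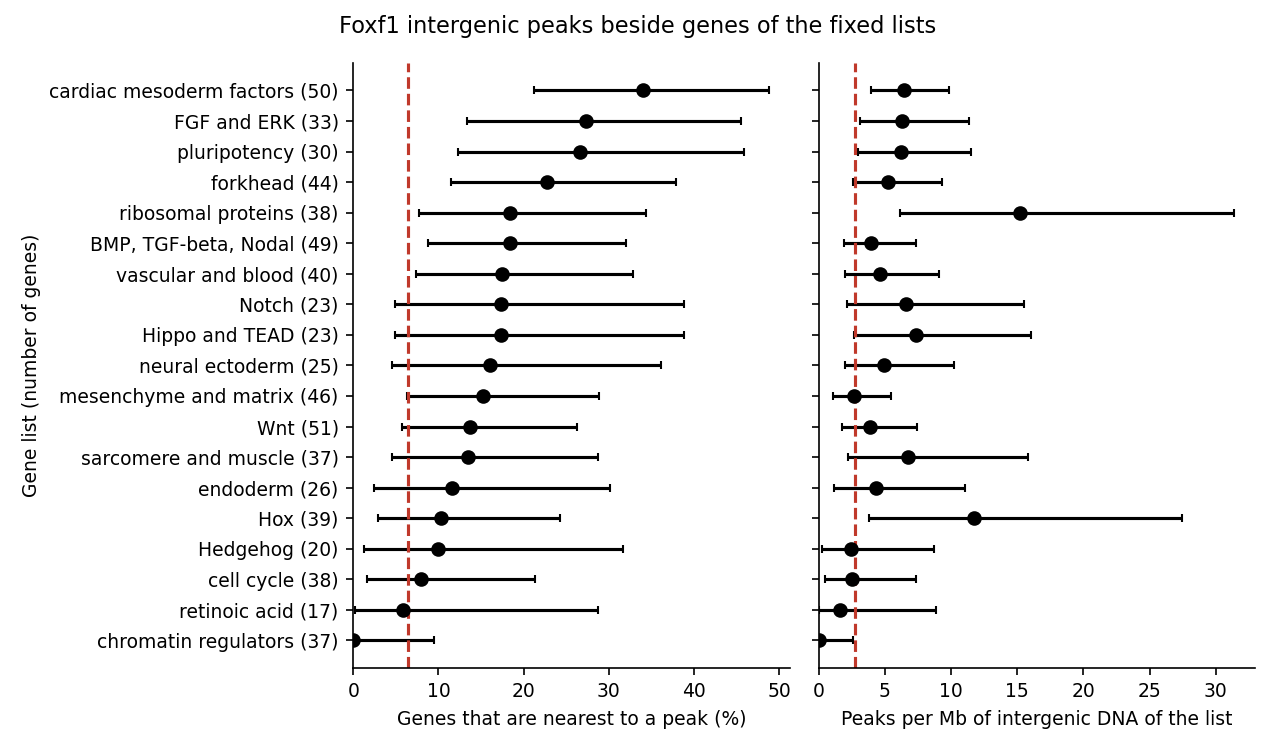
Share of the genes of each list that are nearest to an intergenic Foxf1 peak (left) and peaks per Mb of the intergenic DNA of those genes (right), with exact 95% intervals as bars and the value over all protein-coding genes (6.44% and 2.72 per Mb) as dashed lines. Cardiac mesoderm factors have the highest share by nearest gene, at 34.0%, and chromatin regulators the lowest, at 0.

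Transcription factors of the cardiac and other mesoderm had the highest share of the 19 lists by nearest gene. Of 50, 17 (34.0%, interval 21.2 to 48.8) were nearest to a peak, against 6.44% of all genes. A peak within 50 kb was found for 21 (42.0%), a share below those of the Hox (43.6%) and pluripotency (43.3%) lists. The list had 65.1 kb of intergenic DNA per gene, the most of the 19, against 27.6 kb over all genes. It held 6.45 peaks per Mb, against 2.72 over all genes. The ribosomal protein, Hox, Hippo and TEAD, sarcomere and Notch lists held more per Mb. The peaks of the cardiac list had a median fold of 7.86. Foxc1, a forkhead gene of the mesoderm and vessels, had the strongest of them, 14.0 kb upstream at chr13:31792483-31792892 with a fold of 13.6. Hand1, the other factor of the study, had 2 peaks, the stronger 4.97 kb away with a fold of 10.4. Lhx2, a LIM homeobox gene, had one 6.40 kb downstream (10.3), and Meis2, a TALE homeobox gene, one 5.31 kb downstream (10.2). The peak 11.8 kb upstream of Gata5, a cardiac GATA factor gene, was at 9.24, and the one 2.71 kb from Foxc2 at 9.06. The other 11 genes of the list had folds from 5.45 at Hand2 to 8.51 at Mef2c. Among them were Mesp1 (8.46), the factor that marks the earliest cardiac progenitors, the T-box genes Tbx18 (8.15), Eomes (7.86), Tbx2 (7.76), Tbx3 (7.34) and T (7.14), and Irx5, Nr2f1 and Smarcd3.

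The forkhead genes themselves were nearest to peaks in 10 of 44 cases (22.7%, interval 11.5 to 37.8), against 6.44% of all genes. They had 5.23 peaks per Mb (2.61 to 9.36), an interval that takes in the 2.72 over all genes. Their peaks had a median fold of 9.55, against 7.73 for all intergenic peaks. Foxc1 and Foxc2 are counted both here and among the cardiac mesoderm factors. Foxo6 (18.3), Foxc1 (13.6) and Foxf2 (13.1) had the highest folds. The peak at Foxf2, the closest paralogue of Foxf1, lay 1.21 kb downstream of it at chr13:31632346-31632853. Foxj1, the regulator of motile cilia, had a peak 11.5 kb away (12.4), Foxd3 one 2.51 kb downstream (9.99) and Foxk1 one 33.8 kb away (9.55). Foxc2, Foxp4, Foxo1 and Foxo3 lay near peaks with folds between 5.84 and 9.06. Foxf1 lies in a row with Foxc2 and Foxl1, and the peak nearest to Foxc2, at chr8:121113269-121113684, was 25.3 kb from an end of Foxf1 and 14.2 kb from Foxl1.

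FGF signalling runs through receptor kinases to ERK, and its feedback inhibitors are among its own targets. Of 33 genes of this pathway, 9 (27.3%, interval 13.3 to 45.5) were nearest to a peak, against 6.44% of all genes. They had 6.34 peaks per Mb (3.16 to 11.3), against 2.72 over all genes. The ligand genes were Fgf18, with a peak 1.15 kb upstream (10.3), and Fgf15, with one 6.23 kb away (7.44). The inhibitor genes were Spry2 (2.19 kb upstream, 9.24), Dusp4 (3.06 kb, 8.60), Il17rd (15.9 kb upstream, 7.46) and Spry4 (10.5 kb, 6.70). Etv4, an ETS factor gene that FGF activates, had 2 peaks, the stronger at 9.99. The early response genes Fos (6.48) and Egr1 (6.22) completed the list. Basic FGF and FGF10 were in the CP medium of these cells, beside VEGF, and any part of them in these peaks was not tested.

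In the BMP, TGF-beta and Nodal list, 9 of 49 genes (18.4%, interval 8.76 to 32.0) were nearest to a peak, against 6.44% of all genes. The list had 4.00 peaks per Mb (1.92 to 7.36), an interval that takes in the 2.72 over all genes. The Id genes, which encode inhibitors of bHLH factors and are direct BMP targets, had peaks 5.22 kb from Id1 (9.79), 4.57 kb downstream of Id3 (9.34) and 1.36 kb downstream of Id2 (7.40). Among the signal transducers, Smad4 had the highest fold (10.4), and Smad6, an inhibitory Smad, and Smad3 had 6.75 and 6.41. Bmp7, a ligand, had 2 peaks (the stronger 8.88), Msx1, a homeobox target, a peak 2.28 kb upstream (8.83), and Nog, the secreted BMP inhibitor, one 1.07 kb away (6.13).

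Genes of the other signalling pathways were nearest to peaks as follows, set beside 6.44% and 2.72 peaks per Mb over all protein-coding genes. In the Wnt list it was 7 of 51 (13.7%; 3.90 peaks per Mb), with the receptor gene Ror2 (11.6), the transcription factor genes Sp8 (9.24) and Cdx2 (9.07), the ligands Wnt3a (8.15) and Wnt2b (7.20), and the inhibitors Dkk3 (8.44) and Sfrp2 (6.72). In the Hedgehog list it was 2 of 20 (10.0%; 2.42 per Mb), the ligand Shh with a peak 5.46 kb away (9.74) and the coreceptor Gas1 with one 1.13 kb upstream (6.24). In the Notch list it was 4 of 23 (17.4%; 6.64 per Mb), namely the Fringe genes Rfng (8.46) and Mfng (6.99), the feedback regulator Nrarp (7.92) and the ligand Dll4 (6.88). In the Hippo and TEAD list it was also 4 of 23 (7.38 per Mb), with Ccn1 (21.4), Tead4 (10.3), Amotl2 (9.33) and Tead1 (7.32). The retinoic acid list had 1 of 17 (5.88%; 1.59 per Mb), Crabp2 (7.56).

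Genes of other cell states were near peaks in varying shares, set beside 6.44% of all protein-coding genes. Of 30 pluripotency genes, 8 (26.7%, interval 12.3 to 45.9) were nearest to a peak, with 6.26 peaks per Mb. Dnmt3b, a DNA methyltransferase gene, had the highest fold (11.3), 6.93 kb downstream, followed by Nanog (2 peaks, the stronger 9.89), Lin28a (8.67), Sox2 (8.57, 9.08 kb upstream), Zfp42 (7.77) and Tbx3 (7.34), and Klf4 and Dppa3 were lower. Of 25 neural genes, 4 (16%, interval 4.54 to 36.1) were, with Sox1 at 12.7, Dlx2 at 10.9, Pax7 at 9.50 and Neurog2 at 7.82. Of 26 endoderm genes, 3 (11.5%, 2.45 to 30.2) were, Cdx2, Col4a1 (6.69) and Krt18 (6.33). The neural and endoderm intervals take in 6.44%. Of 40 vascular and blood genes, 7 (17.5%, 7.34 to 32.8) were, led by Gata2 (11.5, 4.23 kb upstream), Egfl7 (8.74), Erg (7.79), Cd34 (7.58), Cdh5 (6.24) and Aplnr (6.12).

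Among genes of differentiated structures, 5 of 37 sarcomere and muscle genes (13.5%, interval 4.54 to 28.8) were nearest to a peak. That interval takes in the 6.44% of all genes. The myosin light chain genes accounted for 4 of them. Myl3 had a peak 11.8 kb downstream (12.7), Myl4 one 3.10 kb downstream (10.4), Myl2 one 3.62 kb upstream (8.74) and Myl7 one 8.53 kb downstream (7.40). Cnn1, a smooth muscle calponin gene, had one 3.01 kb upstream (10.7). In the list of mesenchyme and matrix genes, 7 of 46 (15.2%, interval 6.34 to 28.9) were nearest to a peak, and the interval also takes in 6.44%. With 2.67 peaks per Mb the list matched the density over all genes, 2.72. Ccn1 led it, before the matrix proteases Mmp2 (9.88) and Mmp14 (8.88), the collagens Col1a2 (8.17) and Col6a1 (7.86), and Hapln1 (7.69).

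The Hox genes show how much the measure matters. Of 39, 4 (10.3%, interval 2.87 to 24.2) were nearest to a peak, against 6.44% of all genes. Since the genes stand close together, 17 (43.6%) had one within 50 kb of an end, against 16% of all genes. The 5 peaks gave 11.8 per Mb of their short intergenic space of 0.425 Mb. A single peak 1.28 kb downstream of Hoxa9 (6.06) lay within 50 kb of 8 other Hoxa genes, as far as Hoxa4 (30.1 kb) and Hoxa13 (37.0 kb). Hoxb1 and Hoxb9 were at 8.16 and 6.32.

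The lists of general cell functions did not behave alike. Of 37 chromatin regulators, 0 were nearest to a peak, which allows a share of up to 9.49% (exact 95% upper limit), and 5 (13.5%) had a peak within 50 kb, against 16% of all genes. Of 38 cell cycle genes, 3 (7.89%, interval 1.66 to 21.4) were nearest, against 6.44% of all genes. They were E2f2 (9.44), Ccnd2 (8.15) and Ccne1 (6.54), with 2.51 peaks per Mb. Of 38 ribosomal protein genes, 7 (18.4%, 7.74 to 34.3) were nearest to a peak. Their density was the highest of any list at 15.2 per Mb (6.12 to 31.4), over a space of only 0.460 Mb. Rps3 (8.94), Rps14 (8.48), Rpl14 (8.16), Rps24 (8.11) and Rpl13 (6.13) were among them.

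A few of the intergenic Foxf1 peaks lay next to a Hand1 peak without sharing a base with it. There were 9 within 1 kb, 21 within 5 kb, 43 within 10 kb and 121 (7.46%) within 50 kb. Peaks that overlapped Hand1 had been left out by the rule. No matching counts for the other Foxf1 positions are given, so these stand without a comparison. The peak downstream of Eomes, at chr9:118489526-118490064, lay 193 bp from a broad Hand1 peak at chr9:118486302-118489333, and the Hand1 peak had a fold of 6.34 in its own list. At Fosb, an AP-1 gene, the gap was 139 bp (Foxf1 6.38, Hand1 13.0), at Armh1 29 bp (7.91 and 6.19) and at Plxdc1 155 bp (6.88 and 22.0). The folds of the lists come from different libraries and stages and are set side by side without a comparison.

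MicroRNA hairpins lay within 5 kb of 12 of the peaks, 17 hairpins in all, with no matching count for the other Foxf1 positions. The Mir17 cluster, an oncogenic and growth-promoting set of miRNAs made from 1 transcript, lay downstream of the peak at chr14:115040763-115042460. That peak had a fold of 8.71 and lay 1.41 kb before the first hairpin and 2.16 kb before the last, though its nearest protein-coding gene, Gpc5, was 49.936 kb away. The mature miRNAs are printed from RefSeq with the seed, bases 2 to 8, in capitals, with 1 arm for each of the 6 hairpins of this locus, because some of these arms share a seed. The miRNAs miR-17-5p and miR-20a-5p share the seed AAAGUGC, and miR-19a-3p and miR-19b-3p share GUGCAAA.
miR-17-5p: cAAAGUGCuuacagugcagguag
miR-20a-5p: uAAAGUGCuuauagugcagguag
miR-18a-5p: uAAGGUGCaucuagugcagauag
miR-19a-3p: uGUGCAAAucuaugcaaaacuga
miR-19b-3p: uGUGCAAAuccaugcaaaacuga
miR-92a-3p: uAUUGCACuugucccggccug

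Other peaks lay 0.993 kb upstream of Mir193a (7.76), 0.742 and 1.66 kb downstream of Mir129-1 (7.06 and 7.78, summits of 1 called region), 3.56 kb upstream of Mir183 and 3.75 kb upstream of its neighbour Mir96 (8.77), and 2.44 kb downstream of Mir7-2 (8.88). The peak upstream of Sox2 lay 2.37 kb downstream of Mir1897.

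The peaks were unevenly spread over chromosomes. Chromosome 8 held 5.22 per Mb (4.37 to 6.18) and chromosome 11 held 5.16 (4.36 to 6.06), followed by chromosome 15 with 4.13 and chromosome 6 with 3.99. Chromosome 3 held 1.41 and chromosome X 0.330 (15 peaks, 9 of them in the Mid1 cluster). Chromosomes 6 and 8 also had the highest median controls of the autosomes, 3.41 and 3.89 fragments, against 2.19 to 2.92 on the other 17 autosomes, and chromosome 11 was at 2.48. The part of the control level in these densities was not tested.

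**Figure D5:**
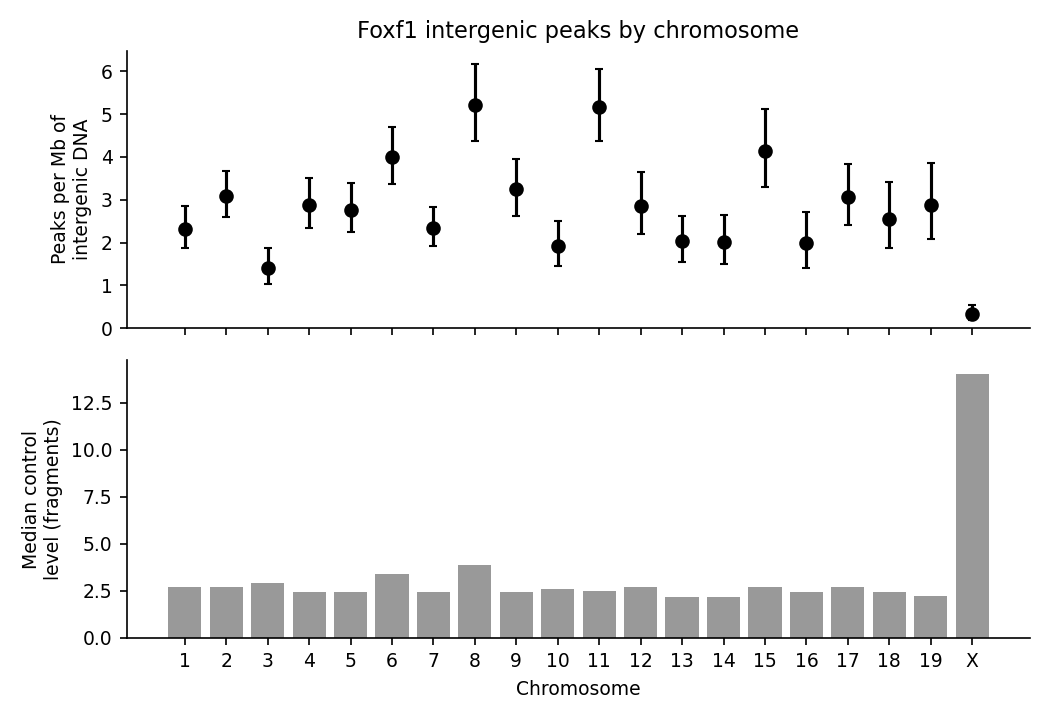
Intergenic Foxf1 peaks per Mb of intergenic DNA by chromosome with exact Poisson 95% intervals (top), and the median control level at their summits in fragments (bottom). Chromosomes 8 and 11 are highest at 5.22 and 5.16 per Mb, and chromosome X is lowest at 0.330 per Mb with a median control of 14.1. That median reflects the Mid1 cluster, which holds 9 of the 15 peaks on X, all with high controls. The other 6 had controls below the limit of 7.83 fragments.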

How the data were processed

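Per the submitters' processing notes, the build was mm10 and the tools were Trim Galore 0.6.6, Bowtie2 2.3.4.3, SAMtools 1.9, deepTools 3.5.0 and MACS2 2.2.7.1, with no role or order given. Both deposited files are narrowPeak tables with no header line. The authors' fold enrichment is a linear ratio, and the deposited −log10 p-value and −log10 q-value belong to the summit. The deposited summit offset gave each position, and the deposited score entered no result. The lowest −log10 q in the deposited lists was 10.0 for Foxf1 and 5.01 for Hand1. Per-sample depth is unknown, which limits the precision of each value.

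Summits were placed against 21631 protein-coding genes of the RefSeq table (GRCm38.p6), read as the same coordinates as mm10. Strand came from the RefSeq promoter table, which gave it for 17274 of those genes (79.9%). Fragments k and control level λ were solved from fold = (k + 1)/(λ + 1) and the Poisson p-value, taking the higher λ, and k was whole within 0.05 for 100% of peaks. Each gap between genes was split at its middle to assign intergenic DNA to genes and distances. Scripts ran in Python 3.11.15 with pandas 2.3.3, NumPy 2.4.6, SciPy 1.17.1 and matplotlib 3.10.9, and were tested on simulated data. The 65 Foxf1 peaks on scaffolds were left out.

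The peaks described and the gene lists were chosen with earlier results of these data known. Named were the 15 peaks of highest fold, clusters of 3 or more (at most the 10 with most peaks), genes nearest to 3 or more peaks (at most 10), up to 6 genes per list by fold, and the peaks beside the distance limits. Other list genes, the cluster at Gm15319, the Hand1 neighbours, the lncRNA windows, the miRNAs and the symbol families were named after their values were seen. The values of 2 genes are not reported here. Alternatives changed the q limit, the distance limits, the gene set, the cluster link, summits per region, high controls and chromosomes 6 and 8.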

Additional observations from a re-analysis of the deposited data

How the results depend on the processing

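Of 28 alternative values, 17 stayed within the 95% interval of the reported value or, for the number of peaks, within 1.5 times it. A −log10 q of at least 20 left 436 peaks, with a median fold of 10.9 and a median distance of 10.3 kb, 5.05% of them in clusters and 8.84% of the list genes within 50 kb (4.91% of all genes); fewer peaks entered by construction. Without chromosomes 6 and 8, 24.0% of list genes and 13.7% of all genes had a peak within 50 kb, with the genes of those chromosomes still counted. By nearest gene this left 16.7% of the pluripotency list, 10.0% of the vascular and blood list and 5.13% of the Hox list. The cardiac mesoderm list was at 28.0%, the BMP list was unchanged at 18.4%, and all genes were at 5.38%. The clustered share was 10.3% with links of 5 kb, 24.8% with 25 kb and 21.8% with links to any Foxf1 peak. The list share was 16.4% for the nearest gene only (6.44% of all genes) and 18.1% within 20 kb (8.27%). The number of peaks was 1607 with 1 summit per region, 1589 without high controls, 1612 with Hand1 peaks within 1 kb also left out, 1385 with genes of every kind and 1165 between 2 and 25 kb.

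No paired analysis was possible because each factor has 1 peak list and no result comes from a test. With 1 list per factor, no fit without a replicate exists. The planned motif shares at the summits were not run either, for lack of a genome sequence. The median of 28 fragments per summit limits the precision of single folds.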

Other observations

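Gene families defined by their symbols, chosen after the data were seen, differed widely in how often they were nearest to an intergenic Foxf1 peak. Of 1110 olfactory receptor genes (Olfr), which are expressed in sensory neurons of the nose, 12 (1.08%) were nearest to one, with 0.534 peaks per Mb of their intergenic DNA. Of 355 vomeronasal receptor genes (Vmn), 3 (0.845%) were, with 0.195 per Mb. Over all protein-coding genes the values were 6.44% and 2.72 per Mb. Of 397 zinc finger genes (Zfp), 21 (5.29%) were, with 2.12 per Mb, and of 375 solute carrier genes (Slc), 38 (10.1%), with 3.91 per Mb.

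Small families had wide exact binomial 95% intervals, set beside 6.44% of all protein-coding genes. Of 17 Kruppel-like factor genes (Klf), 5 (29.4%; 10.3 to 56.0) were nearest to a peak. Of 19 SOX genes, 4 (21.1%; 6.05 to 45.6) were, an interval that takes in 6.44%. Of 37 genes with short interleukin symbols (Il), which take in receptor genes such as Il9r, 4 (10.8%; 3.03 to 25.4) were nearest to a peak. That interval also takes in 6.44%. Those 4 genes had 12 peaks between them, with folds up to 12.2. Replication histone genes, which stand close together, had 1 of 57 nearest to a peak (1.75%) and 17 (29.8%) within 50 kb of one, against 16% of all protein-coding genes. None of these differences between families was tested.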
